A study of Mus musculus with 18 samples.

Results

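The genes described here are 7 transcription factor genes of the endoderm, the embryonic layer that forms gut, liver and pancreas. They are the forkhead genes Foxa1, Foxa2 and Foxa3, the nuclear receptor genes Hnf4a and Hnf4g, and the cut homeobox genes Onecut1 and Onecut2. They were taken by symbol from a deposited table of 23228 genes, and all 7 were in it. The table held 1 pooled value per gene for each of 2 mouse tissues of the ICR strain, so no SD, p-value or replicate check can be given. The pancreas sample was RNA from the whole, unsorted organ of wild-type embryos at embryonic stage E15.5. The neural tube sample was RNA from E12.5 embryos, labelled wild type, carrying GFP under the 2.3 kb Ptf1a autoregulatory enhancer and a beta-globin basal promoter, and only the GFP-positive cells sorted after trypsin dissociation were used. Tissue, stage, sorting and RNA extraction differ between the samples in the same way and cannot be told apart. Pancreas is also named with a further library preparation, which cannot be told apart from them either. The series compares Ptf1a, a basic helix-loop-helix factor needed for both pancreas and dorsal inhibitory neurons, between these tissues, and Foxa2 is one of the proteins that other samples of the series immunoprecipitated in pancreas. Those chromatin samples are not analysed here.

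Foxa proteins bind forkhead sites in closed chromatin and are known as pioneer factors of endoderm, and Foxa2 is also a factor of the floor plate, the ventral midline of the neural tube. Hnf4 proteins are nuclear receptors that bind direct repeats and drive metabolic and secretory genes in liver, gut and pancreas. Onecut proteins, with a cut domain and a homeodomain, act in early pancreas, duct and liver, and also in spinal motor neurons and interneurons.

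Values are FPKM, fragments scaled to transcript length and to the number of mapped fragments, which allow levels of different genes to be compared per length. A gene was called higher in a sample when log2(FPKM + 1) differed by at least 2 (4 times) and the higher value was at least 5 FPKM. This is a rule of size, not a test, and differences below are log2(FPKM + 1) in pancreas minus neural tube, which makes low genes look less different than their FPKM ratio. By this rule 1278 genes were called higher in pancreas, 5.5% of all listed genes and 11.9% of the 10744 genes that reached 5 FPKM in at least 1 sample. In neural tube 1106 were called higher, 4.76% and 10.3% of the same sets. Of all calls 53.6% were toward pancreas, and this share was 62.1% with upper quartile scaling, 33.2% with equal totals, 42.7% with housekeeping scaling and 43.0% with equal totals without the most abundant genes.

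The labelled tissues carried their defining markers. In pancreas 8 of 9 acinar, 7 of 8 endocrine and all 10 epithelial markers were called higher, with summed levels of 30590, 2738 and 998 FPKM, against 1.20, 16.1 and 9.97 FPKM in neural tube. In neural tube 7 of 7 dorsal inhibitory neuron markers, 6 of 6 pan-neuronal markers and 7 of 7 neural progenitor markers were called higher. Their sums were 0.944, 26.0 and 13.0 FPKM in pancreas, against 524, 1500 and 375 FPKM in neural tube. The pancreas also held mesenchyme, endothelial and immune RNA, with summed markers of 1177, 72.3 and 202 FPKM, against 39.2, 6.29 and 6.01 FPKM in neural tube. Whether a low level in such a bulk sample comes from fewer cells or from less RNA per cell cannot be told apart.

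The starts of the 3 genes called below are shown because these genes had the same pattern of high pancreas and near-zero neural tube values. Each sequence is read 5′ to 3′ on the gene's strand and ends at or before an annotated RefSeq start. They come from the RefSeq promoter table and were placed by exact match on NCBIM37 (mm9), the build named for the deposited values. Capitals mark matches on either strand to ATTGAT, a core of Onecut sites, and Foxa3 has none. Hnf4a has 2 starts, 40298 bases apart. The upstream one, shown here, is known as P2, used in pancreas, and the downstream one as P1, used in liver.
Foxa2, chr2:147872706-147872955, minus strand: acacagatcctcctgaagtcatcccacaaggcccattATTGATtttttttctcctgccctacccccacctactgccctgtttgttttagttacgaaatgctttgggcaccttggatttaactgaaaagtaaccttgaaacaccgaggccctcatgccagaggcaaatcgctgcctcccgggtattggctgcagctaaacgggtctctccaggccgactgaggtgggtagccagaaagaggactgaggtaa
Foxa3, chr7:19608889-19609138, minus strand: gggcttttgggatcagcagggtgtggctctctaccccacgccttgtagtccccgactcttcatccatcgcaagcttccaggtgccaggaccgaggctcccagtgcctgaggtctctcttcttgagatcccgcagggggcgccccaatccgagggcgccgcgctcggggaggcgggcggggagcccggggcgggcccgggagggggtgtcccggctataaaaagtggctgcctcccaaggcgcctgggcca
Hnf4a upstream start, chr2:163332343-163332543, plus strand: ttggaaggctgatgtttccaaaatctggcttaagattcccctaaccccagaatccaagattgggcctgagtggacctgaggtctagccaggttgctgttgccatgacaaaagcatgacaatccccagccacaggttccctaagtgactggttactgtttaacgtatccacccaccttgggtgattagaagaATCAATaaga

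From the table of starts, 8 starts of 5 of the 7 genes were used. The 250 bases before each were searched on both strands for 5 patterns. Hnf4g had no entry in the table, and Onecut2 was left out of the search. ATTGAT was found before 2 of the 8 starts and before 6.72% of all 32851 starts in the table. One of these matches lies at -59 to -54 from the upstream start of Hnf4a, and the other at -213 to -208 from the outermost start of Foxa2. The forkhead sequence TGTTTAC was found before 1 start, that of Foxa1, at -141 to -135, against 3.17% of all. None of the 8 held CAAAGTCCA, an Hnf4 element, or AGGTCA, a receptor core searched separately, which 0.384% and 14.02% of all starts held. None held CANCTG within 30 bases of TGGGAA, the 2 parts of a site of the Ptf1a complex, which 3.40% of all starts held. The bases before the Hnf4a starts had 3 and 4 CpG dinucleotides, against a median of 6 over the table. Those before the Foxa2 starts had 6, 20 and 13, with 6 before the start shown, and those of Foxa3, Foxa1 and Onecut1 had 18, 21 and 31. A match is a run of letters and not a shown site, and no peak data bear on it here.

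Foxa2 and Foxa3 were high in pancreas, and Foxa1 was near zero in both tissues. Foxa2 (ENSMUSG00000037025.5, chromosome 2, 147868613 to 147872705, minus strand) had 14.9 FPKM in pancreas and 0.315 FPKM in neural tube, 47.5 times more in pancreas, with a difference of 3.60. Foxa3 (ENSMUSG00000040891.5, chromosome 7, 19598631 to 19608887, minus strand), a factor of liver and gut endoderm, had 15.45 FPKM in pancreas and was listed at 0 in neural tube. Both were called higher in pancreas. Foxa1 (ENSMUSG00000035451.6, chromosome 12, 58641618 to 58647108, minus strand), which acts beside Foxa2 in endoderm, had 0.0563 FPKM in pancreas and 0.166 FPKM in neural tube. Its difference was -0.14, with 24.9% of listed genes below it in pancreas and 35.6% in neural tube.

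Per length, the Foxa RNA in pancreas was split almost evenly between Foxa2 and Foxa3. The annotated coding transcripts of Foxa2 run from 865 to 2128 bases, and this split depends on which of them was assumed. The 3 genes summed to 30.5 FPKM in pancreas and 0.481 FPKM in neural tube. Foxa3 made up 50.7% of the pancreas sum, Foxa2 49.1% and Foxa1 0.185%. In neural tube the small sum was 65.4% Foxa2 and 34.6% Foxa1. Within pancreas Foxa3 ranked 4528 and Foxa2 4673 of 23228 genes, above 80.5% and 79.9% of them.

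Hnf4a followed the same pattern and its paralog was much lower. Hnf4a (ENSMUSG00000017950.9, chromosome 2, 163332544 to 163398646, plus strand) had 11.6 FPKM in pancreas and 0.0819 FPKM in neural tube, 141 times more in pancreas, with a difference of 3.54. It was called higher in pancreas and ranked 5641 there, above 75.7% of genes. Its annotated coding transcripts run from 431 to 4362 bases, and its level per length depends on which of them was assumed. The table has 1 value per gene, so the RNA of its 2 starts is not told apart. The noncoding gene 0610008F07Rik on the opposite strand shares 0 exonic bases with it and had 0.0889 FPKM in pancreas and 0 in neural tube.

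Hnf4g (ENSMUSG00000017688.8, chromosome 3, 3508030 to 3659775, plus strand), a gut paralog of Hnf4a, had 0.405 FPKM in pancreas and 0.000305 FPKM in neural tube. The neural tube value is under the 0.0299 FPKM that 3 fragments on its longest coding transcript would give, and no fold is given. The difference was 0.49, and the gene was not called. Hnf4a made up 96.6% of the Hnf4 FPKM in pancreas, where the pair summed to 11.98 FPKM, against 0.0823 FPKM in neural tube.

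By their listed values, the Onecut genes did not share the pancreas pattern. Onecut1 (ENSMUSG00000043013.7, chromosome 9, 74709728 to 74737591, plus strand), also called Hnf6, had 2.68 FPKM in pancreas and 2.38 FPKM in neural tube. Its difference of 0.12 turned to -0.10 with housekeeping scaling, -0.32 with equal totals and -0.09 with equal totals without the most abundant genes. The same-strand noncoding gene Gm16551 shares 479 of the 2116 exonic bases of Onecut1, and its own value was 11.4 FPKM in pancreas and 0.65 FPKM in neural tube. How reads in the shared bases were divided is not given in the sources used here, so the Onecut1 levels are uncertain.

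Onecut2 (ENSMUSG00000045991.9, chromosome 18, 64500002 to 64560641, plus strand) was the one of the 7 with the most excess in neural tube, although below the 5 FPKM minimum. It had 0.0789 FPKM in pancreas and 1.46 FPKM in neural tube, 18.5 times more in neural tube, and a difference of -1.19. With a pseudocount of 0.1 FPKM the difference was -3.13, and with 5 FPKM it was -0.35. Its annotated coding transcripts run from 1403 to 15906 bases, and a level per length depends on which of them was assumed. Onecut2 made up 2.86% of the FPKM of both Onecut genes in pancreas and 38.1% in neural tube. These shares rest on the uncertain Onecut1 levels.

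**Figure D1:**
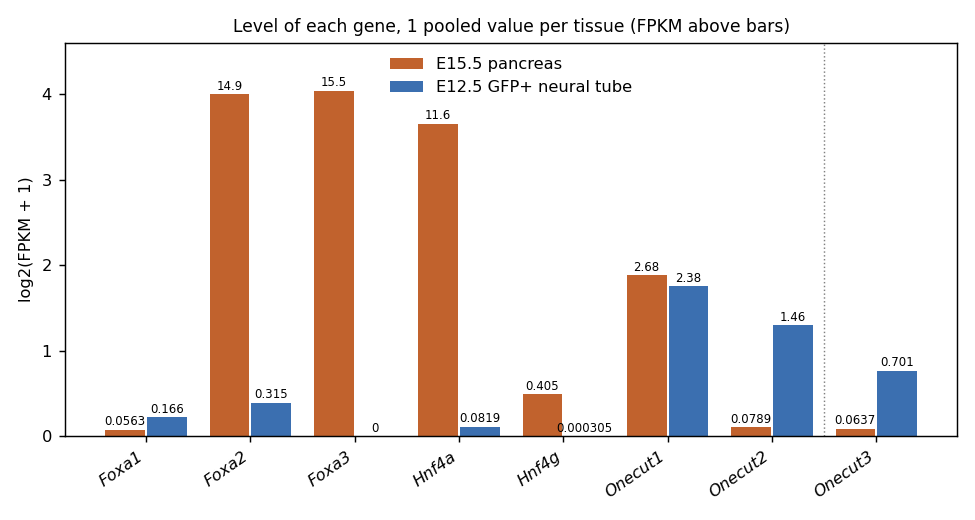
Bars give log2(FPKM + 1) of the 7 factors and, right of the dotted line, their relative Onecut3, with pancreas in orange and neural tube in blue, 1 pooled value each and no error bar; the FPKM is printed above each bar. Foxa2, Foxa3 and Hnf4a stand between 11.6 and 15.45 FPKM in pancreas and at or below 0.315 FPKM in neural tube, while Onecut2 is higher in neural tube.

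Of the 7 genes, 3 were called higher in pancreas and 0 in neural tube, beside 5.5% and 4.76% of all listed genes. The members were chosen with such values known, so no test is attached to this count. Only these 3 reached 5 FPKM in either sample, and the other 4 could not be called in either direction. Over all 7 the median difference was 0.49, between 3 values of 3.54 or more and 3 values of 0.12 or less. The same median over the whole table was 0.00. In all, 721 genes were at 5 FPKM or more in pancreas and below 1 FPKM in neural tube, and Foxa2, Foxa3 and Hnf4a were among them. The order of levels was Foxa3, Foxa2, Hnf4a, Onecut1, Hnf4g, Onecut2 and Foxa1 in pancreas. In neural tube it was Onecut1, Onecut2, Foxa2, Foxa1, Hnf4a, Hnf4g and Foxa3. With 1 value per tissue, it cannot be said which neighbours differ beyond the spread of replicates.

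**Figure D2:**
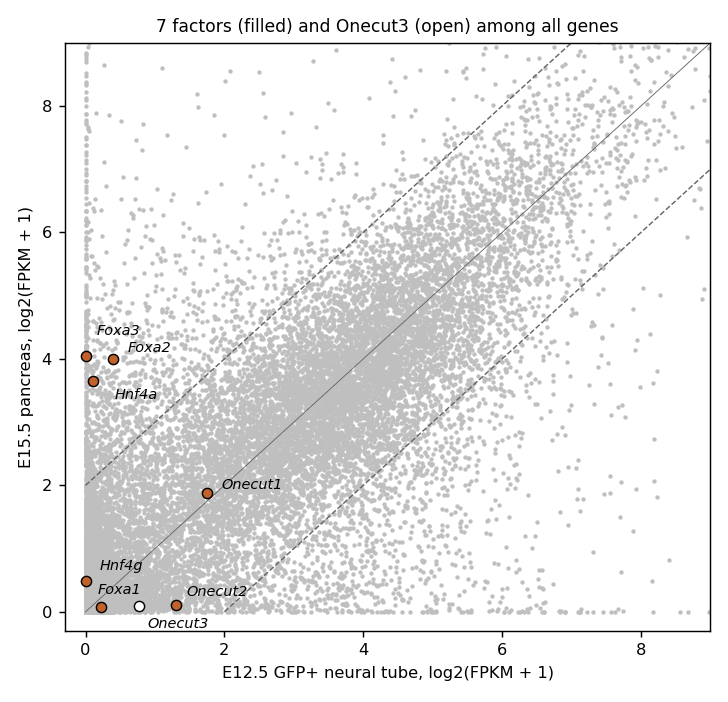
Each grey point is a gene, with log2(FPKM + 1) in neural tube on the horizontal axis and in pancreas on the vertical axis, both ending at 9, which leaves 231 genes undrawn. Dashed lines mark a difference of 2 in either direction, the 7 factors are filled and Onecut3 is open; Foxa2, Foxa3 and Hnf4a lie above the upper line at the left edge, and Onecut1 lies near the diagonal.

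Onecut3 had 0.0637 FPKM in pancreas and 0.701 FPKM in neural tube, 11.0 times more in neural tube, on the same side as Onecut2. It is the third Onecut gene of the mouse and was below 1 FPKM in both samples.

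The genes with the most similar pair of values were found by Euclidean distance over the 2 log2(FPKM + 1) values, so likeness rests on 2 numbers only. Nearest to Foxa2 among 18736 genes were Procr, a protein C receptor, at 14.9 FPKM in pancreas and 0.296 FPKM in neural tube, and the glycosyltransferase gene Gcnt1, at 15.0 and 0.294 FPKM in the same order. Nearest to Foxa3 were Tff2, a secreted trefoil peptide, at 15.7 FPKM in pancreas, and Stfa1, a protease inhibitor, at 15.8 FPKM, both listed at 0 in neural tube. Stfa1 has near-identical copies in the mouse genome, which makes its value uncertain. Nearest to Hnf4a were the metabolic enzyme genes Tdh and Fmo2, at 11.8 FPKM each in pancreas, against 0.0724 and 0.053 FPKM in neural tube.

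Other endoderm factors were mostly higher in pancreas. Of 18 such genes 10 were called toward pancreas and 0 toward neural tube. The median difference was 2.09 over the 18, beside 0.00 over the whole table. Over the 17 that reached 1 FPKM in at least 1 sample, most through pancreas alone, it was 2.15. Over all 14303 genes that reached 1 FPKM in at least 1 sample, the median was 0.07. Neurog3, the factor that starts endocrine differentiation, had 35.04 FPKM in pancreas and 0.341 FPKM in neural tube. The nuclear receptor Nr5a2, an acinar and liver factor, had 23.3 FPKM in pancreas and 0.0738 FPKM in neural tube. Gata6, an endoderm zinc finger factor, had 15.4 FPKM in pancreas and 0.453 FPKM in neural tube, a pancreas level close to those of Foxa2 and Foxa3. Sox9 and Prox1, which both tissues use, had differences of -0.71 and -1.15 and were not called. With a pseudocount of 5 FPKM the calls in this list dropped to 3.

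Genes known as targets of these factors in liver ranged widely in pancreas. Of 23 plasma protein genes in the table, 7 were called higher in pancreas and 0 in neural tube, and 9 were below 1 FPKM in pancreas. Ambp, a protease inhibitor precursor, had 254 FPKM in pancreas and was listed at 0 in neural tube. The retinol carrier Rbp4 had 80.9 FPKM in pancreas and 0.779 FPKM in neural tube. Ttr, which encodes transthyretin and is a classic Foxa and Hnf4 target, had 278 FPKM in pancreas and 15.9 FPKM in neural tube. In contrast Apob had 0.0615 FPKM in pancreas and 0.00276 FPKM in neural tube, Fga had 0.429 FPKM and 0 in the same order, and Apoc3 was listed at 0 in both. The median difference was 1.62 over the 23 genes, and 3.13 over the 14 that reached 1 FPKM in at least 1 sample, a filter that most of them pass through pancreas alone.

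Some liver markers were also higher in pancreas. Of 8 liver markers 3 were called higher in pancreas, with a summed level of 44.6 FPKM, against 0.433 FPKM in neural tube, and a range from 0.0247 to 19.1 FPKM in pancreas. Afp and Alb, both also in the plasma protein list, had 19.1 and 12.4 FPKM in pancreas, against 0.0201 FPKM and 0 in neural tube. The liver enzyme genes Cps1, Tat and Tdo2 were at 0.0247, 0.222 and 0.133 FPKM in pancreas, against 0.0252 FPKM, 0 and 0.0554 FPKM in neural tube. The part of liver RNA in these values was not tested.

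Metabolic and transport genes were also unequal in pancreas. Of 20, 7 were called toward pancreas and 0 toward neural tube, and the median difference was 0.69 over the 20. Over the 11 that reached 1 FPKM in at least 1 sample, most through pancreas alone, it was 2.48. Slc2a2, the glucose transporter of beta cells and liver, had 6.71 FPKM in pancreas and 0.016 FPKM in neural tube. Hadh, a Foxa2 target of fatty acid oxidation, had 76.1 FPKM in pancreas and 16.7 FPKM in neural tube. The gluconeogenic genes Pck1 and G6pc were at 0.0476 and 0.095 FPKM in pancreas, against 0.0576 and 0.0371 FPKM in neural tube. Slc37a4, which works beside G6pc, was at 14.3 FPKM in pancreas and 15.0 FPKM in neural tube. The 7 calls dropped to 3 with a minimum of 10 FPKM, and to 0 with a pseudocount of 5 FPKM or a threshold of 8 times.

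Receptors that read the same direct repeats as Hnf4 had a negative median as deposited. Of 16 receptors and cofactors 1 was called toward pancreas and 2 toward neural tube, and the median was -0.83 over the 16. The neural tube count was 4 with equal totals and 1 with upper quartile scaling. Nr2f1, or COUP-TFI, had 3.07 FPKM in pancreas and 68.0 FPKM in neural tube, and Nr2f6 had 16.4 FPKM in pancreas and 71.7 FPKM in neural tube. Nr2f6 was no longer called with upper quartile scaling, a pseudocount of 5 FPKM or a threshold of 8 times. The corepressor receptor Nr0b2, or SHP, had 7.79 FPKM in pancreas and was listed at 0 in neural tube. It was no longer called with a pseudocount of 5 FPKM or a minimum of 10 FPKM. Rxra, a partner of many receptors but not of Hnf4, was at 9.90 FPKM in pancreas and 17.1 FPKM in neural tube.

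Groucho corepressors, which Foxa proteins can recruit, were mostly present in both tissues. Of 6 genes, Tle6 was called higher in pancreas, with 36.5 FPKM there and 0.327 FPKM in neural tube. Tle3, at 8.18 FPKM in pancreas and 46.3 FPKM in neural tube, and Tle4, at 2.07 and 14.6 FPKM in the same order, were called higher in neural tube. Their 2 calls were lost with a pseudocount of 5 FPKM and with a threshold of 8 times. Aes, the short family member, was the most abundant in both, at 287 FPKM in pancreas and 137 FPKM in neural tube. The median of the 6 differences was -0.08 as deposited.

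**Figure D3:**
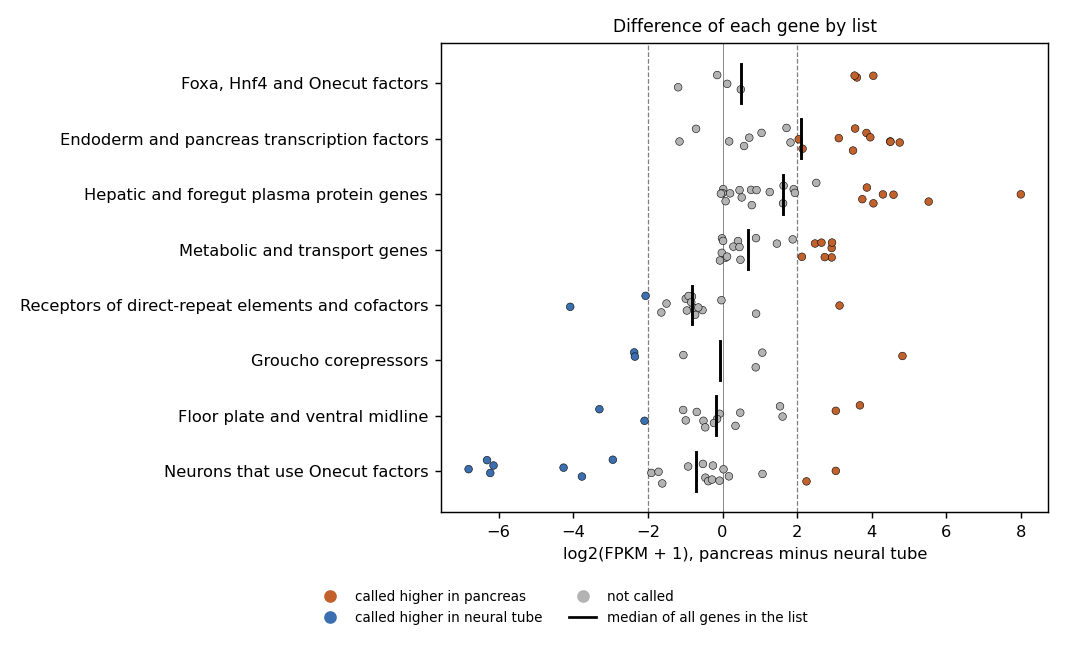
Each point is a gene, placed by its log2(FPKM + 1) in pancreas minus that in neural tube, in rows by list; orange points were called higher in pancreas, blue in neural tube and grey not called, dashed lines mark 2 and -2, and the black bar is the median of all genes of the list with a value. The endoderm, plasma protein and metabolic rows have no blue point, and the row of neurons that use Onecut factors has 7.

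In the neural tube, Foxa2 is known from the floor plate, and genes of that region were at unequal levels in the sorted cells. Shh, the floor plate signal, had 0.00782 FPKM in pancreas and 0.436 FPKM in neural tube. Ferd3l, another floor plate gene, was listed at 0 in pancreas and had 0.0554 FPKM in neural tube. Of 16 floor plate and ventral genes 2 were called toward pancreas and 2 toward neural tube, and the median was -0.19 over the 16, or -0.46 over the 11 that reached 1 FPKM. Sulf1, at 26.5 FPKM in pancreas and 1.14 FPKM in neural tube, and Nkx2-2, at 9.19 and 0.243 FPKM in the same order, were those of the pancreas, and Nkx2-2 is also an islet factor. Slit1, an axon guidance ligand, at 0.655 FPKM in pancreas and 15.3 FPKM in neural tube, and the Hedgehog receptor Ptch1, at 2.75 and 15.0 FPKM in the same order, were those of the neural tube. Nkx2-2 was no longer called with a pseudocount of 5 FPKM or a minimum of 10 FPKM, and Slit1 with that pseudocount. Ptch1 was no longer called with upper quartile scaling, a pseudocount of 5 FPKM or a threshold of 8 times. Ntn1, a secreted guidance cue that is not limited to the floor plate, had 11.4 FPKM in pancreas and 23.5 FPKM in neural tube. The part of floor plate cells in the 0.315 FPKM of Foxa2 was not tested.

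Genes of spinal neurons that use Onecut factors were at unequal levels in the sorted cells. Of 22 identity genes of motor neurons and interneurons, 2 were called higher in pancreas and 7 in neural tube, and the median was -0.72 over the 22. Several of the 7, Pax2 and Lhx5 among them, are also dorsal inhibitory neuron markers counted above. Their calls are therefore not separate from that count and do not bear on the Onecut genes. Over the 14 that reached 1 FPKM, most through neural tube alone, it was -2.42. Pax2 had 0.00811 FPKM in pancreas and 112 FPKM in neural tube, and Lhx5 had 0.0287 and 80.7 FPKM in the same order, both of dorsal inhibitory neurons. Foxd3 and En1, of ventral inhibitory neurons known to use Onecut factors, were at 0.26 and 0.0219 FPKM in pancreas, against 3.14 and 2.83 FPKM in neural tube. The motor neuron genes Lhx3, Isl2, Chat and Slc18a3 were each below 1 FPKM in both. Isl1, used by motor neurons and islets, had 16.5 FPKM in pancreas and 2.67 FPKM in neural tube, and its call toward pancreas was lost in 5 of 11 alternatives, 3 of them rescalings. Which of these neurons held the Onecut RNA was not tested.

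**Figure D4:**
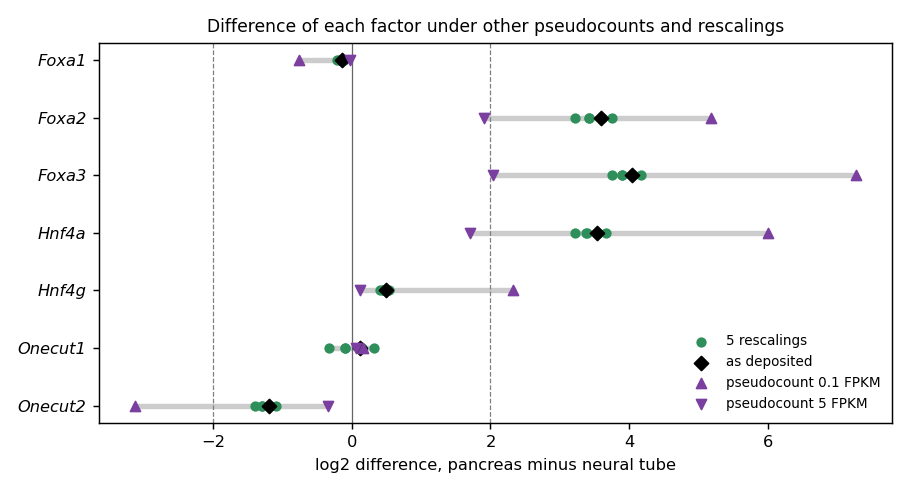
Each row is a factor, with its log2 difference, pancreas minus neural tube, as deposited (black), under pseudocounts of 0.1 and 5 FPKM (purple) and under 5 rescalings (green); the grey line joins the lowest and highest value, and dashed lines mark 2 and -2. Foxa2, Foxa3 and Hnf4a stay above 0 throughout, Foxa1 and Onecut2 stay below 0, and Onecut1 lies on both sides.

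The 3 pancreas calls were kept in 10 of 11 alternatives, and under a pseudocount of 5 FPKM only that of Foxa3 was kept. Depth limits the low values. Judged from the spacing of the lowest values, a single fragment on 1 kb of transcript was worth roughly 0.0246 FPKM in pancreas and 0.0413 FPKM in neural tube. On the longest coding transcript of each gene, 3 fragments would be about 0.0231 FPKM in pancreas and 0.0389 FPKM in neural tube for Foxa1, and 0.0583 FPKM in neural tube for Foxa2. For Foxa3 in neural tube they would be 0.0609 FPKM, and for Hnf4a 0.0284 FPKM, below its listed 0.0819 FPKM.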

How the data were processed

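RNA was sequenced in E15.5 pancreas and E12.5 sorted neural tube cells. Values are FPKM as the authors deposited them, 1 column per tissue, and the labels name 2 libraries per sample, so each column was read as a pooled value. Per the submitters' processing notes, the tools included CASAVA, TopHat, TopHat2 2.0.4 and Cuffdiff 2.0.2 and the build was mm9. How transcripts were annotated, filtered and sequenced to depth is not stated there. Per the labels' protocols, both tissues are named with an Illumina mRNA-seq preparation and pancreas also with a TruSeq one, and abundant transcripts lower the FPKM of all others in a sample.

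Differences used a pseudocount of 1 FPKM, and the rule of size was applied to all 23228 genes with Python 3.11.15, numpy 2.4.6 and pandas 2.3.3. The rule was also run on simulated data. The settings and outcome of that run are not given here, so it does not bear on the calls of the members. Gene models were from GENCODE M1, drawn on NCBIM37, which is mm9. Of all 50-base runs of the members' coding transcripts, those shared with other genes made up 0.837% for Hnf4g, 0.0566% for Onecut1 and 0% for the other 5. Named genes were all members, their relative Onecut3, and the 2 largest differences in each direction at 5 FPKM or more in every list not made of markers, and the 2 nearest genes of each member at 5 FPKM or more. Members and lists were chosen with earlier results of these data known, and other list genes were named after their values were seen. The other 16 samples of the series are not analysed here, and proteins were not compared. Some genes and a motif that the rules would name are not reported here.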

Additional observations from a re-analysis of the deposited data

How the results depend on the processing

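Members called higher in pancreas numbered 3 and in neural tube 0 in 10 of 11 alternatives. Those alternatives that only loosen the rule could not remove a call. With a pseudocount of 5 FPKM the count was 1, with Foxa2 at 1.91 and Hnf4a at 1.71, under the threshold of 2 by construction of the larger pseudocount, and Foxa3 at 2.03. Over all genes, 1278 calls toward pancreas and 1106 toward neural tube moved to 600 and 512 with that pseudocount, to 2690 and 2494 at 2 times, to 653 and 546 at 8 times, and those toward neural tube to 1772 with equal totals. The median difference of genes at 1 FPKM or more in both, -0.02 as deposited, was -0.57 with equal totals, -0.29 with housekeeping scaling, -0.29 once acinar enzymes, small RNAs and the 50 top genes of each sample were left out of the totals, and 0.21 with upper quartile scaling. Of 154 list counts over 11 alternatives, 128 stayed within 1.5 times and 26 moved. With 100 bases before each start in place of 250, 1 of 3 motif matches was left, as fewer bases were searched. No paired analysis was possible because each tissue has 1 pooled column. With 1 value per tissue no replicate could be left out.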

Other observations

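Intestine and stomach markers, which overlap in part with targets of Foxa, Hnf4 and Cdx factors, were mixed in the pancreas. Of 9 with a value, 3 were called higher in pancreas and 1 in neural tube. The trefoil gene Tff2 had 15.7 FPKM and Tff3 5.20 FPKM in pancreas. In neural tube they were listed at 0. Vil1, of the microvillus, had 10.1 FPKM in pancreas and 0.0684 FPKM in neural tube. The gut selectors Cdx1 and Cdx2 were at 0.0604 and 0.0611 FPKM in pancreas, against 0.22 and 0.136 FPKM in neural tube. The 1 marker called toward neural tube, Sox2, is also a neural factor, at 0.0773 FPKM in pancreas and 88.8 FPKM in neural tube.

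Duct markers were also uneven. Of 6, 2 were called higher in pancreas. Spp1, a secreted phosphoprotein, was at 398 FPKM in pancreas and 0.203 FPKM in neural tube, while Cftr was at 0.196 FPKM in pancreas and 0.0186 FPKM in neural tube.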
